A study of Mus musculus with 10 samples.

Results

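The let-7 family guide strands are the 8 mouse let-7 miRNAs of the 5p arm (let-7a, b, c, d, e, f, g and i) and miR-98-5p. They were chosen by name from 1139 mature miRNAs, and all 9 were found and passed the low-count filter. Small RNA sequencing counted them in the hearts of male C57Bl6N mice, with 5 libraries for the CITED4 knockout and 5 for the floxed control, in which the gene is flanked by recombination sites but intact. CITED4 messenger RNA is not among miRNA counts, so the genotypes are as labelled. Every mouse of both groups had transverse aortic constriction, in which a suture around the aorta makes the left ventricle pump against raised pressure, and tissue was taken 1 week after the operation. Unoperated hearts were not analysed here, and the driver of the deletion, the age of the mice and whether each library is 1 animal were not given in the sources used here. P-values therefore rest on the variation among libraries, part or all of which may be technical.

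A miRNA is cut from a hairpin precursor whose arms form a duplex. One arm, the guide, is kept by an Argonaute protein and pairs with messenger RNAs through its seed, bases 2 to 8, and the other arm, the passenger, is mostly lost. The let-7 family is known as a brake on proliferation and growth: it represses growth genes such as Hmga2, Ras and Myc family members, it is low in embryonic cells, and it is abundant in differentiated tissues such as adult heart muscle. The RNA-binding protein LIN28 holds let-7 down in embryonic cells by binding the precursor loop. CITED4, the deleted gene, encodes a transcriptional co-regulator.

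All 9 guides were 22 bases long and shared the seed GAGGUAG. Their sequences, from RefSeq on GRCm38.p6, are shown because the members differ by so few bases that a sequencing error or a lenient alignment can move a read from one to another. Capitals mark the seed.
let-7a-5p: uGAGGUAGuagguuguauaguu
let-7b-5p: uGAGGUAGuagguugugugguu
let-7c-5p: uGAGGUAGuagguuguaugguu
let-7d-5p: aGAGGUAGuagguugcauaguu
let-7e-5p: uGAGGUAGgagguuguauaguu
let-7f-5p: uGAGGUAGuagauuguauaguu
let-7g-5p: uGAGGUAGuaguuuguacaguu
let-7i-5p: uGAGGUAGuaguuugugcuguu
miR-98-5p: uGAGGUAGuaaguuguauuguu

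Counted from 1 at the 5′ end, with the base of let-7a first, let-7c differed from let-7a by A19G, let-7e by U9G and let-7f by G12A. let-7b differed by A17G and A19G, let-7d by U1A and U16C, let-7g by G12U and U18C, and miR-98 by G11A and A19U. let-7i was the farthest from let-7a, with G12U, A17G, U18C and A19U. Of the 36 pairs of members, 4 differed at 1 base and the most distant differed at 6. The rule the authors used for reads that match several members was not given in the sources used here, so the split of reads among let-7a, b, c, e and f is uncertain, and whether a read can count for several members, and so enter their sum more than once, is not known. No member had counts identical to another row. The guides were also poor in cytosine: 6 of 9 held no C and 3 held 1, against 11 of the 381 other tested miRNAs with a RefSeq sequence (2.89%) that held 1 C or none.

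The 9 guides came from 12 hairpins on 7 chromosomes (positions from RefSeq, host genes on the same strand from GENCODE M21, both on GRCm38). let-7a-1, let-7f-1 and let-7d lay together within exonic sequence of 6720427I07Rik, a long noncoding RNA gene, with let-7a-1 at chromosome 13, 48538179 to 48538272, and let-7f-1 261 bases away. let-7b (chromosome 15, 85707319 to 85707403) and let-7c-2 lay in an exon of the noncoding RNA Lncppara. let-7f-2 and miR-98 (chromosome X, 151913214 to 151913321) lay in introns of Huwe1, which encodes a ubiquitin ligase. let-7g (chromosome 9, 106178840 to 106178927) lay in an intron of Wdr82. let-7i (chromosome 10, 122985640 to 122985724) overlapped an exon of the transcribed pseudogene D630033A02Rik. The remaining hairpins sat beside miRNAs of other families. let-7c-1 was 656 bases from miR-99a in an intron of Mir99ahg. let-7a-2 was 5211 bases from miR-100 and 45114 bases from miR-125b-1. let-7e (chromosome 17, 17830352 to 17830444), in an intron of Spaca6, was 367 bases from miR-125a. The letters GGAG, which LIN28 is known to bind in let-7 loops, were searched on the hairpin strand between the arms. They occurred in 9 of 12 family hairpins (all but let-7b, let-7c-2 and miR-98) and in 8.22% of the 645 hairpins in RefSeq with both arms listed. The stretch between the arms had a median of 30.5 bases in the family and 16 over all of these hairpins, so the windows compared were not of equal length.

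The libraries held between 7526091 and 18369483 counts. Heart muscle miRNAs marked the tissue, with miR-1a-3p alone at 24.8% to 39.3% of counts. Control replicate 3 was the shallowest library and stood apart on the second principal component of log2 levels. It lay at -10.2 there, where the other 9 lay between -2.02 and 3.60. On the first component it lay at 7.66, among control replicates 4 and 5 and knockout replicate 4 (5.62 to 10.6). The remaining libraries of both groups lay between -9.31 and -0.708 on that component. Both components were computed over all tested miRNAs, the 9 members included. Fold changes of the members, list counts and group means of arm ratios are given with and without control replicate 3. That library was picked after its values were seen. Levels below are CPM, read counts relative to the library total after TMM, edgeR's factor for differences in composition. The prefix mmu- marks a mouse miRNA.

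Together the 9 guides were among the most abundant miRNAs of the loaded heart. In controls they made up 18.2% ± 3.19 of a library's counts, and in knockouts 20.6% ± 2.77 (SD, n = 5 each, as for all means below). let-7f-5p, let-7a-5p and let-7c-5p ranked 4, 5 and 6 among all tested miRNAs by mean level. Their summed level was 177231, 207401, 112011, 252432 and 221372 CPM in control replicates 1 to 5 and 174737, 196627, 248686, 161058 and 212017 CPM in knockout replicates 1 to 5. The groups overlapped almost fully, and control replicate 3 was the lowest of the 10. The knockout mean was 1.02 times the control mean, and 0.926 times without control replicate 3. As a description of a sum over chosen members, this ratio has no test. In RNA of a whole tissue, fewer cells of a type and less RNA per cell cannot be told apart.

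**Figure D1:**
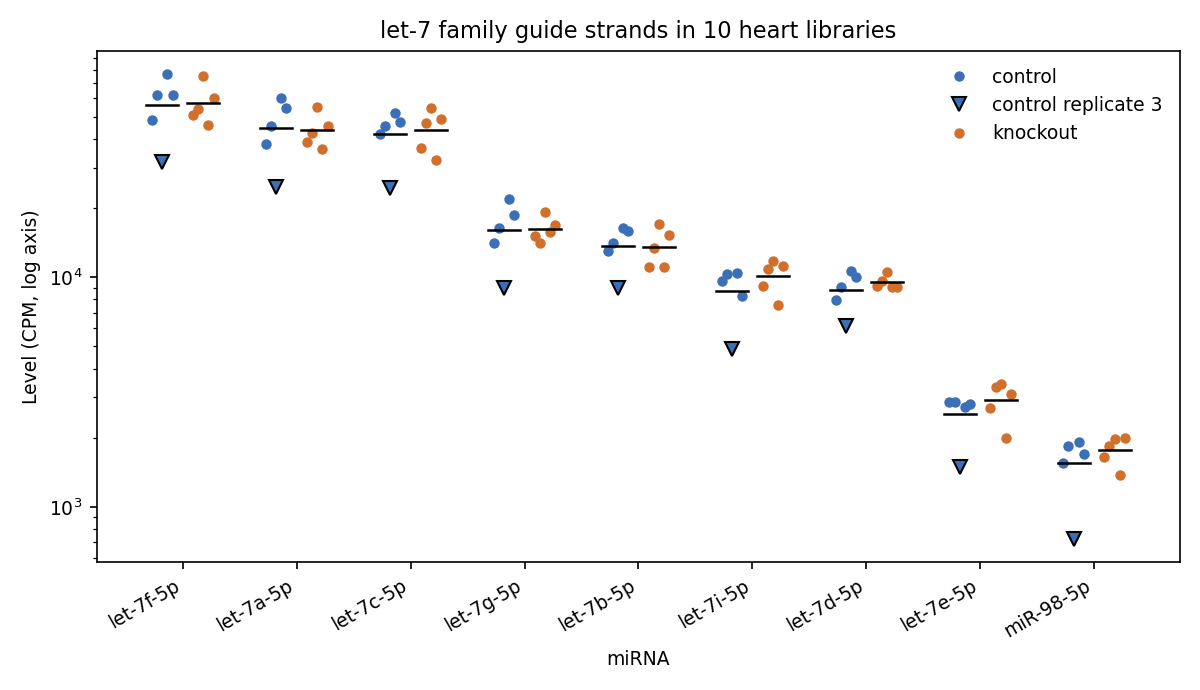
Level of each let-7 family guide strand (CPM, log axis) in 5 control and 5 knockout libraries; each point is a library, the black line is the group mean, and triangles mark control replicate 3. The 2 groups overlap for each of the 9 miRNAs, and control replicate 3 is the lowest of the 10 libraries for each.

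No difference between knockout and control was detected for any member. By edgeR's quasi-likelihood test with Benjamini-Hochberg adjustment over 457 tested miRNAs, 0 of 9 members passed an adjusted p of 0.05, as did 0 of 457 in either direction (0%). At an unadjusted p under 0.05 there were 0 of 9 members against 29 of 457 miRNAs (6.35%). The groups overlapped for 9 of 9 members, and they did not overlap for 0.656% of all tested miRNAs. The log2 fold change was above 0 for 7 of 9 members with a median of 0.05, against 53.2% of all tested miRNAs with a median of 0.03. Without control replicate 3 it was above 0 for 4 of 9, with a median of -0.06, against 55.2% and 0.04 over the 469 miRNAs then tested, and 0 of 9 members against 3.41% of all reached an unadjusted p under 0.05. It was also above 0 for 4 of 9 without knockout replicate 3. It was above 0 for 9 of 9 without control replicate 4 or 5, or without knockout replicate 1, 2 or 4. For control replicates 1 and 2 and knockout replicate 5 left out in turn, the counts were 5, 8 and 7 of 9. Without knockout replicate 4, the knockout with the lowest summed level, the members' median was 0.15, against 0.05 over all tested miRNAs. With each library left out in turn, the share of all tested miRNAs above 0 ran from 53.0% to 56.1%. With library totals only, or with TMM factors computed without the 9 members, 9 of 9 were above 0. Library totals also moved the median of all miRNAs to 0.14 and the share above 0 to 64.8%. TMM factors computed without the members moved these to 0.06 and 57.8%.

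The 5 most abundant members had estimates close to 0 with all libraries, and each of these estimates was below 0 without control replicate 3. mmu-let-7f-5p was at 48167, 61946, 31765, 76636 and 62163 CPM in the controls and at 50793, 54146, 75156, 45842 and 60321 CPM in the knockouts. Except for control replicate 3, both groups covered nearly the same range. The control mean was 56135 ± 16939 CPM and the knockout mean 57252 ± 11309 CPM, for a log2 fold change of 0.03 ± 0.23 (SE, 95% interval -0.46 to 0.52, adjusted p = 0.97, edgeR), and -0.09 without control replicate 3.

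mmu-let-7a-5p, the member identical from worms to mammals, was at 38106, 45618, 24619.6, 60026 and 54602 CPM in controls and at 38723, 42467, 55181, 36071 and 45369 CPM in knockouts. The lowest and the highest library were both controls, and the knockouts lay between them. Its log2 fold change was -0.03 ± 0.22 (SE, 95% interval -0.52 to 0.45, adjusted p = 0.96, edgeR), and -0.16 without control replicate 3. Its sign turned positive with library totals only and with TMM factors computed without the members. mmu-let-7c-5p, with hairpins on chromosomes 15 and 16, was at 41993, 45413, 24451, 51789 and 47245 CPM in controls and at 36342, 46858, 54367, 32344 and 48925 CPM in knockouts. Knockout replicate 4 was the second lowest of the 10 libraries for let-7a-5p and for let-7c-5p. The log2 fold change of let-7c-5p was 0.05 ± 0.21 (SE, adjusted p = 0.91, edgeR), and -0.06 without control replicate 3.

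mmu-let-7g-5p, from the intron of Wdr82, was at 14051, 16289, 9004, 21894 and 18652 CPM in controls and at 15129.5, 14069, 19274, 15665 and 16902 CPM in knockouts. The controls spread from below to above all 5 knockouts, and the means were 15978 ± 4863 and 16208 ± 1995 CPM. Its log2 fold change was 0.02, and -0.10 without control replicate 3. mmu-let-7b-5p, made with let-7c from the Lncppara transcript, was at 12937, 14050.2, 8972, 16419 and 15909 CPM in controls and at 11109, 13433, 17041, 11118 and 15232 CPM in knockouts. Its group means differed by less than 1 SE, with a log2 fold change of -0.01 ± 0.19 (SE, adjusted p = 0.99, edgeR), and -0.10 without control replicate 3. It also turned positive under both of those scalings. In each library, let-7b-5p had fewer counts than let-7g-5p.

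The 4 less abundant members each had a higher mean in knockouts, with estimates from 0.12 to 0.21 that fell to between 0.04 and 0.09 without control replicate 3, less in size than that of let-7a-5p without it. mmu-let-7i-5p, a single-copy member, was at 9641, 10339, 4881, 10393 and 8293 CPM in controls and at 9123, 10839, 11701, 7580.1 and 11132 CPM in knockouts. Knockout replicates 2, 3 and 5 lay above every control, and the other two lay within the control range. Its log2 fold change was 0.21 ± 0.21 (SE, 95% interval -0.23 to 0.66, unadjusted p = 0.33, adjusted p = 0.68, edgeR), and 0.09 without control replicate 3. mmu-let-7e-5p was at 2867, 2863, 1484, 2716 and 2795 CPM in controls and at 2687, 3336, 3411, 1992 and 3102 CPM in knockouts. The other 4 controls lay within a narrow band that control replicate 3 left far below. Its log2 fold change was 0.19 ± 0.20 (SE, adjusted p = 0.69, edgeR), and 0.08 without that library.

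mmu-miR-98-5p, the least abundant member, was at 1547, 1839.9, 727, 1909.6 and 1704 CPM in controls and at 1654, 1839, 1978, 1370.0 and 1987 CPM in knockouts. Again control replicate 3 was the lowest and knockout replicate 4 the second lowest. Its log2 fold change was 0.19 ± 0.23 (SE, 95% interval -0.29 to 0.68, adjusted p = 0.70, edgeR), and 0.04 without control replicate 3. mmu-let-7d-5p, the member that starts with A instead of U, was at 7921, 9042, 6108, 10650.0 and 10011 CPM in controls and at 9176, 9639, 10576, 9075 and 9046 CPM in knockouts. Its knockouts kept closer together than its controls. Its log2 fold change was 0.12 ± 0.16 (SE, adjusted p = 0.73, edgeR), and 0.04 without control replicate 3. Across the 9 members the lowest bound was -0.52, for let-7a-5p, and the highest was 0.68, for miR-98-5p. No single interval covered that whole range, and that of let-7d-5p ran from -0.22 to 0.46. The intervals reached 0.34 to 0.49 to either side of their estimates. A change within a member's own interval is not excluded for that member by these libraries.

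**Figure D2:**
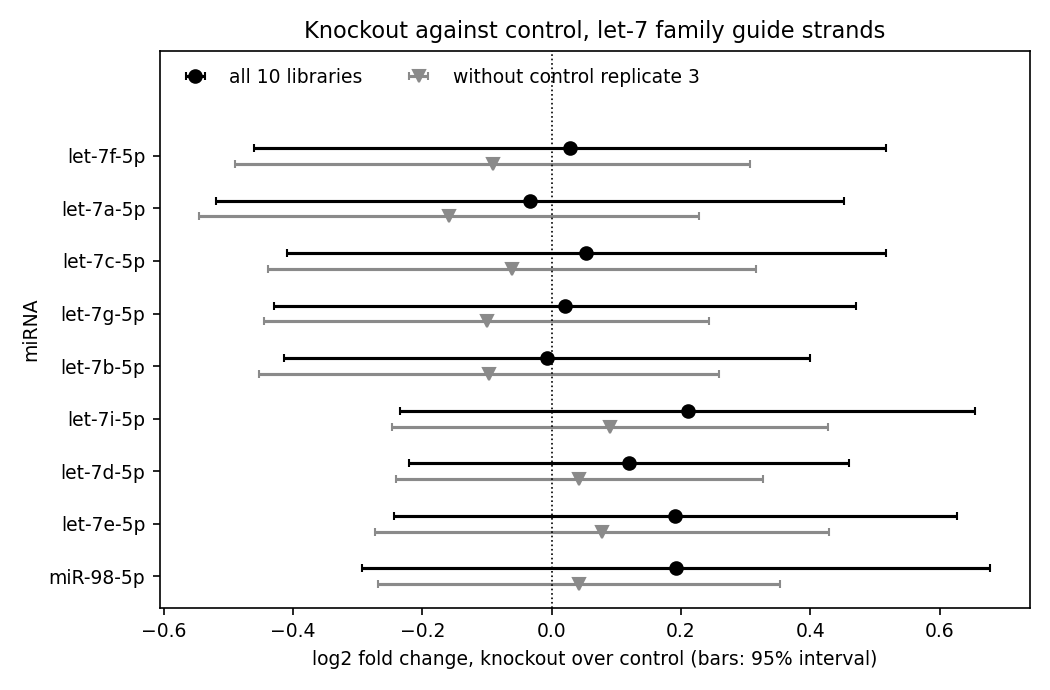
log2 fold change of knockout over control for each let-7 family guide strand, with its 95% interval from edgeR's fit, for all 10 libraries (circles) and without control replicate 3 (triangles). Every interval holds 0, and each estimate is lower without control replicate 3.

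The abundant members kept steady shares of the family. Over the 10 libraries the SD was 21.5% of the mean for the summed family level (15.5% without control replicate 3), 3.81% for the share of let-7f-5p and 4.69% for that of let-7a-5p. The shares of the rarer members varied more, with an SD of 13.4% of the mean for let-7e-5p and 12.3% for let-7i-5p, not far below that of the level without control replicate 3. let-7f-5p, let-7a-5p and let-7c-5p together held 73.0% ± 1.17 of the family reads over the 10 libraries, with a range from 70.9% to 74.7%. let-7f-5p took 28.8% ± 1.31 in controls and 28.7% ± 0.988 in knockouts. let-7a-5p took 22.8% ± 1.36 and 21.9% ± 0.427, and let-7c-5p 21.9% ± 1.17 and 21.9% ± 1.55. These shares do not depend on library scaling. let-7i-5p had the largest difference in share relative to its size among the members above 2% of the family, at 4.53% ± 0.680 in controls and 5.08% ± 0.359 in knockouts, and the groups still overlapped. They overlapped for all 9 shares. miR-98-5p held 0.787% ± 0.0972 and 0.893% ± 0.0669.

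The members, all of equal length, were also set in order by their counts. Whether different sequences are counted with equal efficiency was not tested, so this is an order of counts and not of molecules. let-7f-5p had more counts than let-7a-5p in 10 of 10 libraries. let-7a-5p exceeded let-7c-5p in 7 of 10, and let-7i-5p exceeded let-7d-5p in 5 of 10, so these neighbours were not ordered beyond their spread. let-7g-5p, then let-7b-5p, then let-7i-5p with let-7d-5p, then let-7e-5p and miR-98-5p followed, each step held in 10 of 10 libraries. let-7f-5p had between 29.4 and 43.7 times the counts of miR-98-5p.

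**Figure D3:**
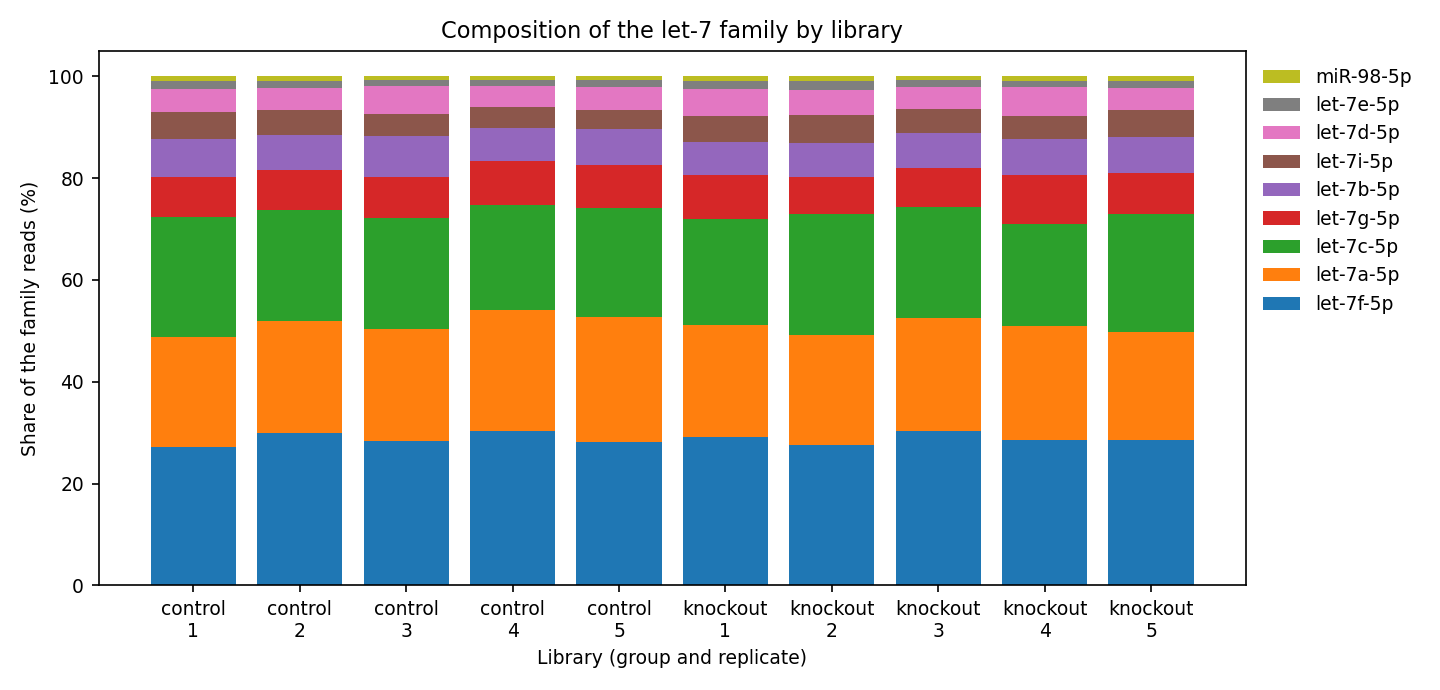
Share of each let-7 family guide strand in the summed family reads (percent, stacked to the whole) in each of 5 control and 5 knockout libraries. let-7f-5p, let-7a-5p and let-7c-5p form the lower part of each bar, between 70.9% and 74.7% in total.

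The members also varied together from library to library. Each miRNA's log2 CPM was centred on its own mean over the 10 libraries, and the likeness of a pair was the root mean square difference of these values. The nearest pattern to let-7a-5p among 456 others was let-7f-5p, at 0.07 on the log2 scale, against a median of 0.52 over all others. let-7a-5p ranked 5 by level, so nearly all of these others were rarer, and they were not matched to it for abundance. let-7b-5p and let-7c-5p were nearest to each other (0.10), as were let-7e-5p and let-7i-5p (0.11). miR-98-5p was nearest to let-7i-5p (0.12), and let-7g-5p to let-7a-5p (0.10). let-7d-5p was the exception: its nearest pattern was miR-1198-5p (0.10), outside the family. Among the 8 nearest patterns of a member, other members numbered from 2, for let-7d-5p, to 7, for let-7a-5p, let-7c-5p and let-7f-5p. All of these values share the same libraries and scaling, and reads can pass between near-identical members. Outside the family, the patterns nearest to the members' mean were miR-872-5p (0.16), miR-206-3p (0.20) and miR-155-5p (0.20). Without control replicate 3, let-7a-5p and let-7f-5p (0.07) and let-7b-5p and let-7c-5p (0.07) were still nearest to each other and miR-1198-5p was still nearest to let-7d-5p, while let-7i-5p was nearest to miR-98-5p (0.09). Other members among the 8 nearest then numbered from 1, for let-7d-5p, to 6, for let-7a-5p, let-7b-5p, let-7c-5p and let-7f-5p. The patterns outside the family nearest to the members' mean were then miR-155-5p (0.11), miR-27b-5p (0.14) and miR-671-5p (0.16).

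Control replicate 3 carried much of that shared variation. Its summed family level was 0.522 of the mean of the other 4 controls. All 9 members were lowest of the 10 libraries there, against 15.5% of all tested miRNAs. All 9 were also at or below 0.75 of the mean of the other 4 controls, against 23.6%. The ratio ran from 0.415 for miR-98-5p to 0.649 for let-7d-5p, with a median of 0.510, against a median of 0.994 over all tested miRNAs. In unscaled counts the gap was smaller: the family took 12.7% in this library and 18.1% to 20.3% in the other controls, a ratio of 0.649. The SD of log2 CPM had a median of 0.36 over the members and 0.26 over the 45 other miRNAs at a mean of 1000 CPM or more. Without control replicate 3 these were 0.23 and 0.26. The thresholds and this library were chosen after the values were seen, and these counts are descriptions with no test.

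Beside these levels stand the cell type markers. Summed markers of heart muscle, endothelium, smooth muscle, fibroblasts, leukocytes and erythroid cells were all inside the range of the other 9 libraries in control replicate 3 (6 of 6 lists). For heart muscle this was 248847 CPM against 220632 to 504094 CPM, and for fibroblasts 9389 CPM against 9183 to 24561 CPM. These sums are carried by their most abundant miRNAs. Of the 18 single markers, 14 were inside the range of the other 9 libraries and 3 were above it: the heart muscle miRNAs miR-208a-3p (932 against at most 692 CPM) and miR-133a-3p (1970.2 against at most 1861 CPM), and miR-145a-5p of smooth muscle (747 against at most 557 CPM). The fibroblast marker miR-199a-3p was below it, at 8721 against at least 8771 CPM. No listed marker was at 0, and miR-451a of the erythroid list was not analysed here. The library's total, 7526091 counts, was below the 8909932 to 18369483 of the others. The part of depth or of these markers in the lower guide levels was not tested.

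The passenger strands, which took no part in choosing the members, did not show the drop. Each passenger sequence holds more cytosines than any guide, so the arms also differ in base content. The part of base content in the contrast between the arms was not tested. The hairpin of let-7d is shown with the guide and then the passenger in capitals, since both of its arms were well counted and each comes from this hairpin alone (chr13:48536012-48536114, minus strand, GRCm38.p6).
let-7d hairpin: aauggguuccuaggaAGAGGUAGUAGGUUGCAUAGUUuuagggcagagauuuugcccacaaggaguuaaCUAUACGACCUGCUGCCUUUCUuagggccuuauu

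let-7d-3p was at 1072, 1229, 1499.7, 1509 and 1438 CPM in control replicates 1 to 5 and at 1113, 1001, 1098, 1663 and 1238 CPM in the knockouts. Control replicate 3 was among the higher libraries for this arm. For let-7d, the guide had 7.39, 7.36, 4.07, 7.06 and 6.96 counts per passenger count in controls and 8.24, 9.63, 9.63, 5.46 and 7.31 in knockouts. Control replicate 3 and knockout replicate 4 were the lowest of the 10 by this ratio, which does not depend on library scaling.

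Of 12 passenger rows, 11 were tested. let-7a-2-3p, at 0 to 11 counts a library, was not. let-7a-1-3p and let-7c-2-3p have the same sequence and the same counts, so their reads have no single hairpin.
let-7a-1-3p: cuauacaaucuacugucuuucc
let-7c-2-3p: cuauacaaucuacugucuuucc

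That shared passenger was at 609, 953, 963, 1077 and 896 CPM in controls and at 646, 815, 861, 999.8 and 910.0 CPM in knockouts. In control replicate 3 it was at 1.09 times the mean of the other controls, while let-7a-5p was at 0.496. Over the 11 tested passenger rows this ratio had a median of 1.09 and a range from 0.653 (let-7g-3p) to 1.88 (let-7f-2-3p), and 0 of 11 were lowest of the 10 libraries in control replicate 3. Several passengers were rare: the control means of let-7e-3p, let-7f-2-3p, let-7g-3p and miR-98-3p were 5.70, 5.19, 7.83 and 9.30 CPM.

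The number of guide counts per passenger count ranged widely between members. For let-7a the passenger was the sequence shared with let-7c-2, which was also part of the passenger count for let-7c, so these ratios are not independent, and those of members with several hairpins are not values of 1 hairpin. The ratio had a mean of 7.31 for let-7d over the 10 libraries, 51.5 for let-7a, 49.5 for let-7c, 215 for let-7b and 2662 for let-7f. In 8 of 9 cases it was lowest in control replicate 3, with let-7g as the exception, and in 7 of 9 it was second lowest in knockout replicate 4. For let-7a it was 25.6 in control replicate 3 and 36.1 in knockout replicate 4, against 47.9 to 64.1 in the other 8 libraries. Between the genotypes the groups overlapped in 9 of 9. The knockout mean was above the control mean in 9 of 9, but in 3 of 9 without control replicate 3. For let-7a the means were 50.5 ± 15.1 in controls and 52.4 ± 10.8 in knockouts, and the control mean without control replicate 3 was 56.8 ± 6.60 (n = 4). For let-7d they were 6.57 ± 1.41 and 8.05 ± 1.75, with a control mean of 7.19 ± 0.214 without that library.

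**Figure D4:**
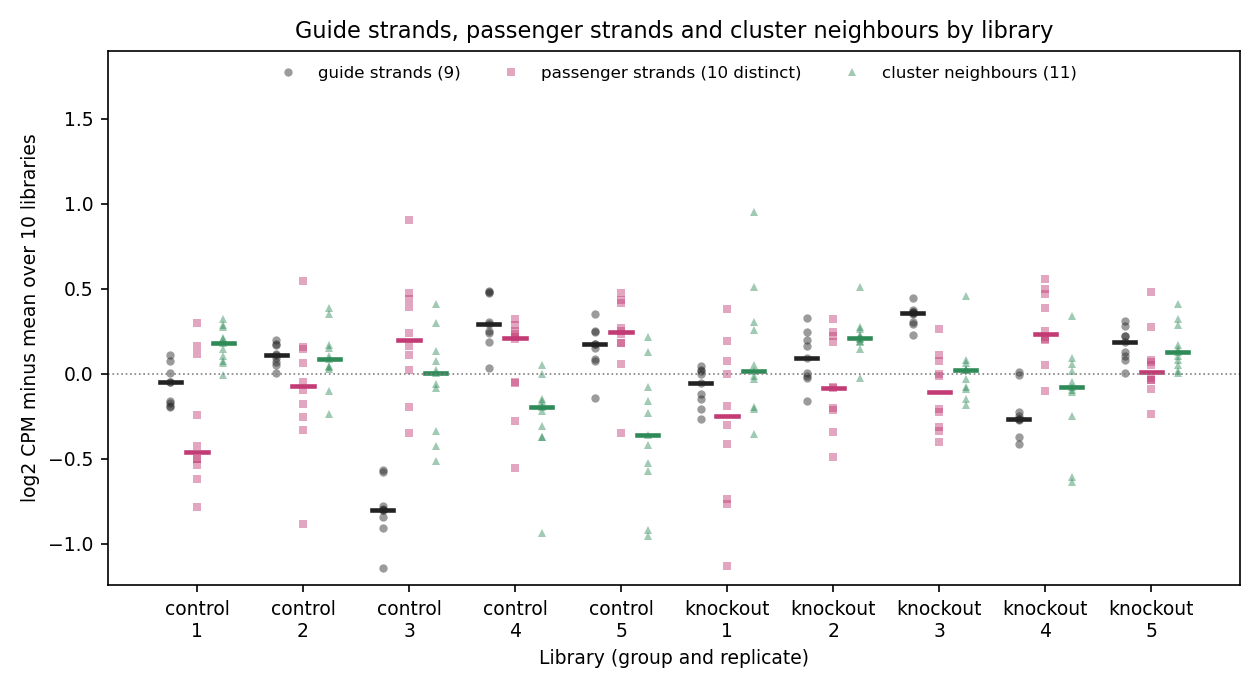
log2 CPM of each miRNA minus its own mean over the 10 libraries, by library, for the 9 guide strands, 10 distinct passenger strands and 11 arms of the cluster neighbours miR-99, miR-100 and miR-125; points are miRNAs and bars are medians. In control replicate 3 the guides have a median of -0.80 and the passengers one of 0.20; in knockout replicate 4 these are -0.27 and 0.23.

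As a list, with the shared sequence counted once, the passengers had 3 of 10 log2 fold changes above 0 with a median of -0.08, against 53.2% and 0.03 over all tested miRNAs. Without control replicate 3 these were 5 of 10 and 0.02, against 55.2% and 0.04. None passed an adjusted p of 0.05, with a smallest unadjusted p of 0.063 (edgeR). That value belonged to let-7c-1-3p, the passenger of the hairpin beside miR-99a, which had a mean of 15.2 ± 3.63 CPM in controls and one of 20.5 ± 4.08 CPM in knockouts. The log2 fold change was 0.42 ± 0.21 (SE, adjusted p = 0.64, edgeR).

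The miRNAs transcribed beside let-7 are the miR-99, miR-100 and miR-125 families, of which miR-125 is the mammalian relative of worm lin-4, a timing miRNA like let-7. Of their 11 arms, 10 had a log2 fold change above 0 with a median of 0.13, against 53.2% and 0.03 over all miRNAs, and 0 passed (smallest unadjusted p = 0.12, edgeR). Without control replicate 3 it was again 10 of 11, with a median of 0.16, against 55.2% and 0.04 over all miRNAs then tested. The list holds both arms of the same hairpins, so its 11 values are not independent, and miR-99a-3p had a control mean of 1.08 CPM. miR-125b-5p, the most abundant, had 5991 ± 789 CPM in the control group and 6263 ± 486 CPM in the knockout group. miR-100-5p had 435 ± 69.3 and 475 ± 18.5 CPM. miR-99b-3p had the largest difference of the list, at 33.2 ± 8.37 and 45.3 ± 18.4 CPM (log2 fold change 0.45 ± 0.27, adjusted p = 0.64, edgeR). In control replicate 3 these neighbours had a median of 1.06 times the mean of the other controls, and 1 of 11, miR-125a-3p, was lowest there. One other deposited row carried the let-7 seed, miR-1961, with 2 counts in all libraries together, and it was not tested.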

How the data were processed

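Small RNA was sequenced in 5 control and 5 knockout heart libraries. The authors deposited raw read counts per mature miRNA, and a normalized signal. Each normalized value times 1 factor per library gave a whole count within 1e-06 in 100% of values, and edgeR on these recovered counts called 0 miRNAs, with 29 at an unadjusted p under 0.05, as on the raw counts. Per the submitters' processing notes the tools were cutadapt 1.10, Bowtie, DESeq2 and STAR and the build GRCm38; their roles were not given in the sources used here. Columns were matched to libraries by title.

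Raw counts were filtered with filterByExpr (457 of 1139 miRNAs kept, 99.99% of counts), scaled with TMM and tested with edgeR 4.0.16 (R 4.3.3), with no term but genotype; log2 CPM used a prior count of 2. The SE is the absolute log2 fold change divided by the square root of F. Of 448 simulated miRNAs, 102 had a log2 change of 1, 93 a change of 2 and 253 none. The fit called 83.3%, 97.8% and 3.95% of these. With so many changed miRNAs, the adjusted threshold is easier to pass than when few or none change. These shares therefore do not give the chance of detecting a change in the members alone. Smaller changes, such as the members' estimates, were not simulated. Alternatives used DESeq2 1.42.0 and limma 3.58.1 (on log2 of the deposited signal plus 1 or 0.5), other scalings and filters, a replicate block, and leaving out each library. Within each group, every pair of libraries differed by more than sampling noise (chi-square per degree of freedom at least 108), so none was a library deposited again; whether libraries share an animal is not known. Reads are not independent molecules. Named miRNAs are the members, their passengers, cluster neighbours, nearest patterns and tissue markers. Members and lists were chosen with earlier results of these data known.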

Additional observations from a re-analysis of the deposited data

Results flagged for a closer look

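For every reported level, share and arm ratio, the most extreme library of a group was set against its nearest neighbour, and the gap was divided by the range of that group. Of 104 sets of 5 values, 7 exceeded Dixon's 95% critical value of 0.71. By chance about 1 in 20, or 5.2, would do so. Many of these values are not independent, since they share libraries and reads.

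Control replicate 3 stood apart in 4 of these. For let-7e-5p it had 1484 CPM, while the remaining controls had 2716 to 2867 CPM (gap over range 0.890). The family took 12.7% of its counts, against 18.1% to 20.3% (0.714). let-7d-5p made up 5.45% of its family reads, against 4.22% to 4.52% (0.754). It had 4.07 counts of let-7d-5p per count of let-7d-3p, against 6.96 to 7.39 (0.871). In knockout replicate 4 the family took 15.8% of counts, against 21.1% to 22.5% in the other knockouts (0.783).

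Among cluster neighbours, miR-125b-5p was at 7103 CPM in knockout replicate 2 against 5895 to 6180.2 CPM (0.764). miR-100-3p was at 3.64 CPM in control replicate 5 against 7.14 to 8.15 CPM (0.776).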

How the results depend on the processing

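No miRNA passed the threshold in any of 20 alternative fits, members included (adjusted p of members from 0.40 to 1.00). At an unadjusted p under 0.05, the 29 of 457 became 14 with library totals only, 102 of 1105 without a low-count filter, 16 of 282 with the stricter filter, 45 of 1105 with DESeq2, 72 with the replicate block, and 6 (without control replicate 5) to 84 (without control replicate 1) with 1 library left out. Members above 0 numbered 7, and 4 to 9 with 1 library left out (4 without control replicate 3 or knockout replicate 3). The sign of let-7a-5p turned at 0.12 with library totals only, 0.0019 with TMM without the members, 0.014 with limma at either pseudocount and 0.0082 with the replicate block. That of let-7b-5p turned at 0.12 with library totals, 0.027 with TMM without the members, 0.026 without a filter and 0.0011 with limma. With 1 library left out, let-7a-5p ran from -0.16 to 0.11, let-7b-5p from -0.10 to 0.087, let-7c-5p from -0.061 to 0.16, let-7f-5p from -0.091 to 0.18 and let-7g-5p from -0.10 to 0.17 (the cause was not tested). Arm ratio differences (log2) of let-7a, c, e, f, i and miR-98 also changed sign with 1 library left out, for let-7a from 0.09 to -0.13 without control replicate 3. Library totals only moved the median of all miRNAs from 0.03 to 0.14. The difference of the groups' mean log2 family level, 0.07, ran from -0.09 to 0.19 with 1 library left out. Replicate numbers occur in both groups without a stated meaning; same-number deviations correlated from -0.12 to 0.45, for 4 of 10 libraries the best match was the same number, and the block changed no call.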

Other observations

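The drop in control replicate 3 was also looked at by base content, after its values were seen. Tested miRNAs with a RefSeq sequence, other than the 9 guides, were grouped by their number of cytosines. The passenger strands were among them. Of 11 miRNAs with 1 C or none, 7 were lowest of the 10 libraries in control replicate 3 (63.6%), with a median of 0.541 of the mean of the other 4 controls. Of 79 with 2 or 3 C the share was 21.5% (median 0.943), of 151 with 4 or 5 C it was 15.9% (0.967), and of 140 with 6 C or more it was 2.86% (1.07). The 7 were miR-7a-5p, a miRNA of neural and endocrine cells, miR-206-3p, a skeletal muscle relative of miR-1, miR-155-5p, an immune cell miRNA, and miR-32-3p, miR-196a-5p, miR-574-5p and miR-672-5p. miR-7a-5p was at 92.9 CPM in control replicate 3, or 0.541 of the mean of the other controls, and miR-206-3p was at 0.555 of it. miR-190a-5p, which holds no C, went the other way, at 217 CPM or 1.26 times the mean of the other controls. Most of the 11 are rare: 3 had a control mean of 50 CPM or more, and their median was 0.753. miR-196a-5p was at 0.117 CPM in that library. In knockout replicate 4 the median log2 deviation of the 11 from their own means was -0.18, against -0.73 in control replicate 3. It was 0.25, 0.21 and 0.25 in control replicates 4 and 5 and knockout replicate 3. The median of the guides in these libraries was 0.30, 0.17 and 0.36. In the remaining libraries the 11 had medians from -0.07 to 0.07 and the guides from -0.05 to 0.19. No test was made of this pattern.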
